A study of Homo sapiens with 36 samples.

Results

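The 10 genes ETF1, GSPT1, GSPT2, EEF2, EEF2K, EEF1A1, EEF1A2, EEF1B2, EEF1D and EEF1G encode the factors that carry the ribosome along an mRNA and release the finished protein. They were taken as the rows of the deposited count table whose Ensembl identifier belongs to one of these symbols, 10 of 61544 genes in the table. All 10 passed the filter on low counts that kept 20767 genes. The cells were MIA PaCa-2, a human pancreatic carcinoma line, grown in RPMI with tetracycline-free serum, and each of 3 lines carried a doxycycline-inducible Cas9 system with 1 type of guide RNA. The guide was directed at PELO in the PELO line, at HBS1L in the HBS1L line, and was non-targeting in the control line (NTC). Cells were cultured with doxycycline (dox) at 2 µg/mL, which induces the knockout, or without it, and polyadenylated RNA was taken at 48 h or 96 h. The 12 groups are therefore PELO with dox, PELO without dox, HBS1L with dox, HBS1L without dox, NTC with dox and NTC without dox at each time, with 3 libraries in each and 36 in all. Whether a line is a pool or 1 clone, and which guide sequence it carries, is not given in the sources used here. Loss of PELO or of HBS1L was studied in cells in which the SKI complex is unstable, and all 12 groups share that background. The 9p21 genes CDKN2A, MTAP and FOCAD, the last of which encodes a stabiliser of the SKI complex, stood at or below 0.0368 CPM (read counts relative to the scaled library size) in every library.

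In each elongation cycle eEF1A, made from EEF1A1 or EEF1A2, brings an aminoacyl-tRNA to the ribosome and leaves bound to GDP. The eEF1B complex, with subunits encoded by EEF1B2, EEF1D and EEF1G, recharges it with GTP, and eEF2 then moves the ribosome by a codon until the kinase encoded by EEF2K phosphorylates it and stops it. At a stop codon eRF1, the product of ETF1, releases the protein together with the GTPase eRF3, made from GSPT1 or its intronless paralog GSPT2. PELO and HBS1L resemble eRF1 and eRF3 in structure, but they act on ribosomes that have stalled and release no protein at a stop codon. Many mRNAs of the translation machinery begin with a C followed by an unbroken stretch of pyrimidines, the terminal oligopyrimidine or TOP motif, which ties their translation to mTOR.

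The letters around the annotated start sites show which members carry such a stretch, and are printed for the members whose levels are set against each other below. Each window runs from 40 bases before the first transcribed base through 20 bases from it on, 5′ to 3′ on the gene's strand, from RefSeq on GRCh38.p14. Capitals mark the unbroken run of C and T that begins at the first transcribed base.
EEF2 (chr19:3985444-3985503, minus strand): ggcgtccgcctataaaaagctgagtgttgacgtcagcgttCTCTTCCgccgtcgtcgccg
EEF1A1 (chr6:73521013-73521072, minus strand): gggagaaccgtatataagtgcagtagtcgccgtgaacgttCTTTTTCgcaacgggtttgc
EEF1B2, second start (chr2:206159855-206159914, plus strand): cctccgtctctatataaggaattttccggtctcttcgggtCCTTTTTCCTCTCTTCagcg
EEF1B2, first start (chr2:206159569-206159628, plus strand): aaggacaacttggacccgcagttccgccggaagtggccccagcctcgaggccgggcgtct
EEF1G (chr11:62573872-62573931, minus strand): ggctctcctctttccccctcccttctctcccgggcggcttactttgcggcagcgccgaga
ETF1, first start (chr5:138543217-138543276, minus strand): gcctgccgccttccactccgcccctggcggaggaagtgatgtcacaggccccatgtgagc
GSPT1, first start (chr16:11916635-11916694, minus strand): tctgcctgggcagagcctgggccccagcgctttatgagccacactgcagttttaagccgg
The run is 7 bases long in EEF2, 7 in EEF1A1 and 16 at the second start of EEF1B2, and it is absent at the annotated first base of the other windows. Start sites in the table used were read for 8 of the 10 members, and a run of at least 5 bases was found for EEF2, EEF1A1 and EEF1B2. No start site was read for EEF1A2 or EEF1D, so whether these carry such a run was not tested. Across all 35116 start sites in that table, 5.17% have a run of at least 5. A window without such a run says only that these letters do not stand at the annotated first base.

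Per library 45356024 to 107436235 counts fell on genes, and the scaling factors lay between 0.910 and 1.05. The deepest library, replicate 2 of PELO with dox at 96 h, stands above the next, at 66704841. Between libraries of a group the chi-square per degree of freedom ran from 1.81 to 19.1, and in 7 groups 1 library stood apart, with values of 8.64 to 19.1 to the other two against 1.81 to 4.33 between those. They were PELO dox 48 h replicate 1, PELO no dox 48 h replicate 3, PELO dox 96 h replicate 1, PELO no dox 96 h replicate 3, HBS1L dox 96 h replicate 3, NTC dox 96 h replicate 3 and NTC no dox 96 h replicate 3. Without these 7 libraries, an alternative chosen after seeing the data, no member's call was lost or changed sign in any comparison, and further calls were gained, of which those beyond the control line are given beside the results. Taking out the libraries farthest from their groups also lowers the spread that the test uses. HBS1L mRNA fell in the HBS1L line by 1.67 (log2) at 48 h and 1.77 at 96 h relative to NTC, with 36.2 ± 0.90 and 33.8 ± 0.33 CPM with dox, against 105 ± 1.75 and 111 ± 1.98 CPM without dox (SD, n = 3). PELO mRNA in the PELO line changed by -0.13 (adjusted p = 0.19) and 0.01 (adjusted p = 0.92) at these times, so mRNA level does not check that knockout. The epithelial keratins KRT8, KRT18 and KRT19 and the intermediate filament gene VIM were expressed in every library, while EPCAM and CDH1 were at or below 0.0542 CPM. Of 10 leukocyte, fibroblast, endothelial and acinar markers, 9 were at or below 1.20 CPM in every library. PTPRC, DCN, PECAM1 and PRSS1 were at or below 0.0614 CPM, and CD14 ranged over 0.398 to 8.49 CPM. The summed epithelial markers were lower in PELO with dox at 96 h, at 1516 to 1858 CPM, than in PELO without dox, at 3255 to 3609 CPM, and that shift's part in the results was not tested. Library numbers of the 48 h and 96 h samples come from separate blocks, so time and block cannot be told apart.

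Levels of the 10 genes spanned a wide range. Per kilobase of merged exons, and averaged over the 36 libraries, EEF1A1 had 2072 CPM and EEF2 1484 CPM, followed by EEF1G with 298, EEF1B2 with 231, EEF1A2 with 127, ETF1 with 96.2, GSPT1 with 37.2, EEF1D with 37.0, GSPT2 with 14.8 and EEF2K with 3.65 CPM per kb. In that order the ranges over libraries overlap for EEF1G and EEF1B2, for EEF1A2 and ETF1, and for GSPT1 and EEF1D, and for no other neighbours. EEF1A1 stood 16.3 ± 1.47 times above its paralog EEF1A2 per kb (SD, n = 36 libraries), and GSPT1 stood 2.53 ± 0.24 times above GSPT2. Merged exons count every annotated isoform, which lowers the per-kb level of genes with many of them, such as EEF1D at 9390 bp. The levels of EEF1A1 and EEF1G, their places in this order and ratios with them are uncertain. Reads may be shared with the pseudogenes of EEF1A1 and with a gene model that covers EEF1G, both described below. Gene coordinates and exons are those of GENCODE 29 on GRCh38. The plot of levels by library shows each gene on its own scale.

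**Figure D1:**
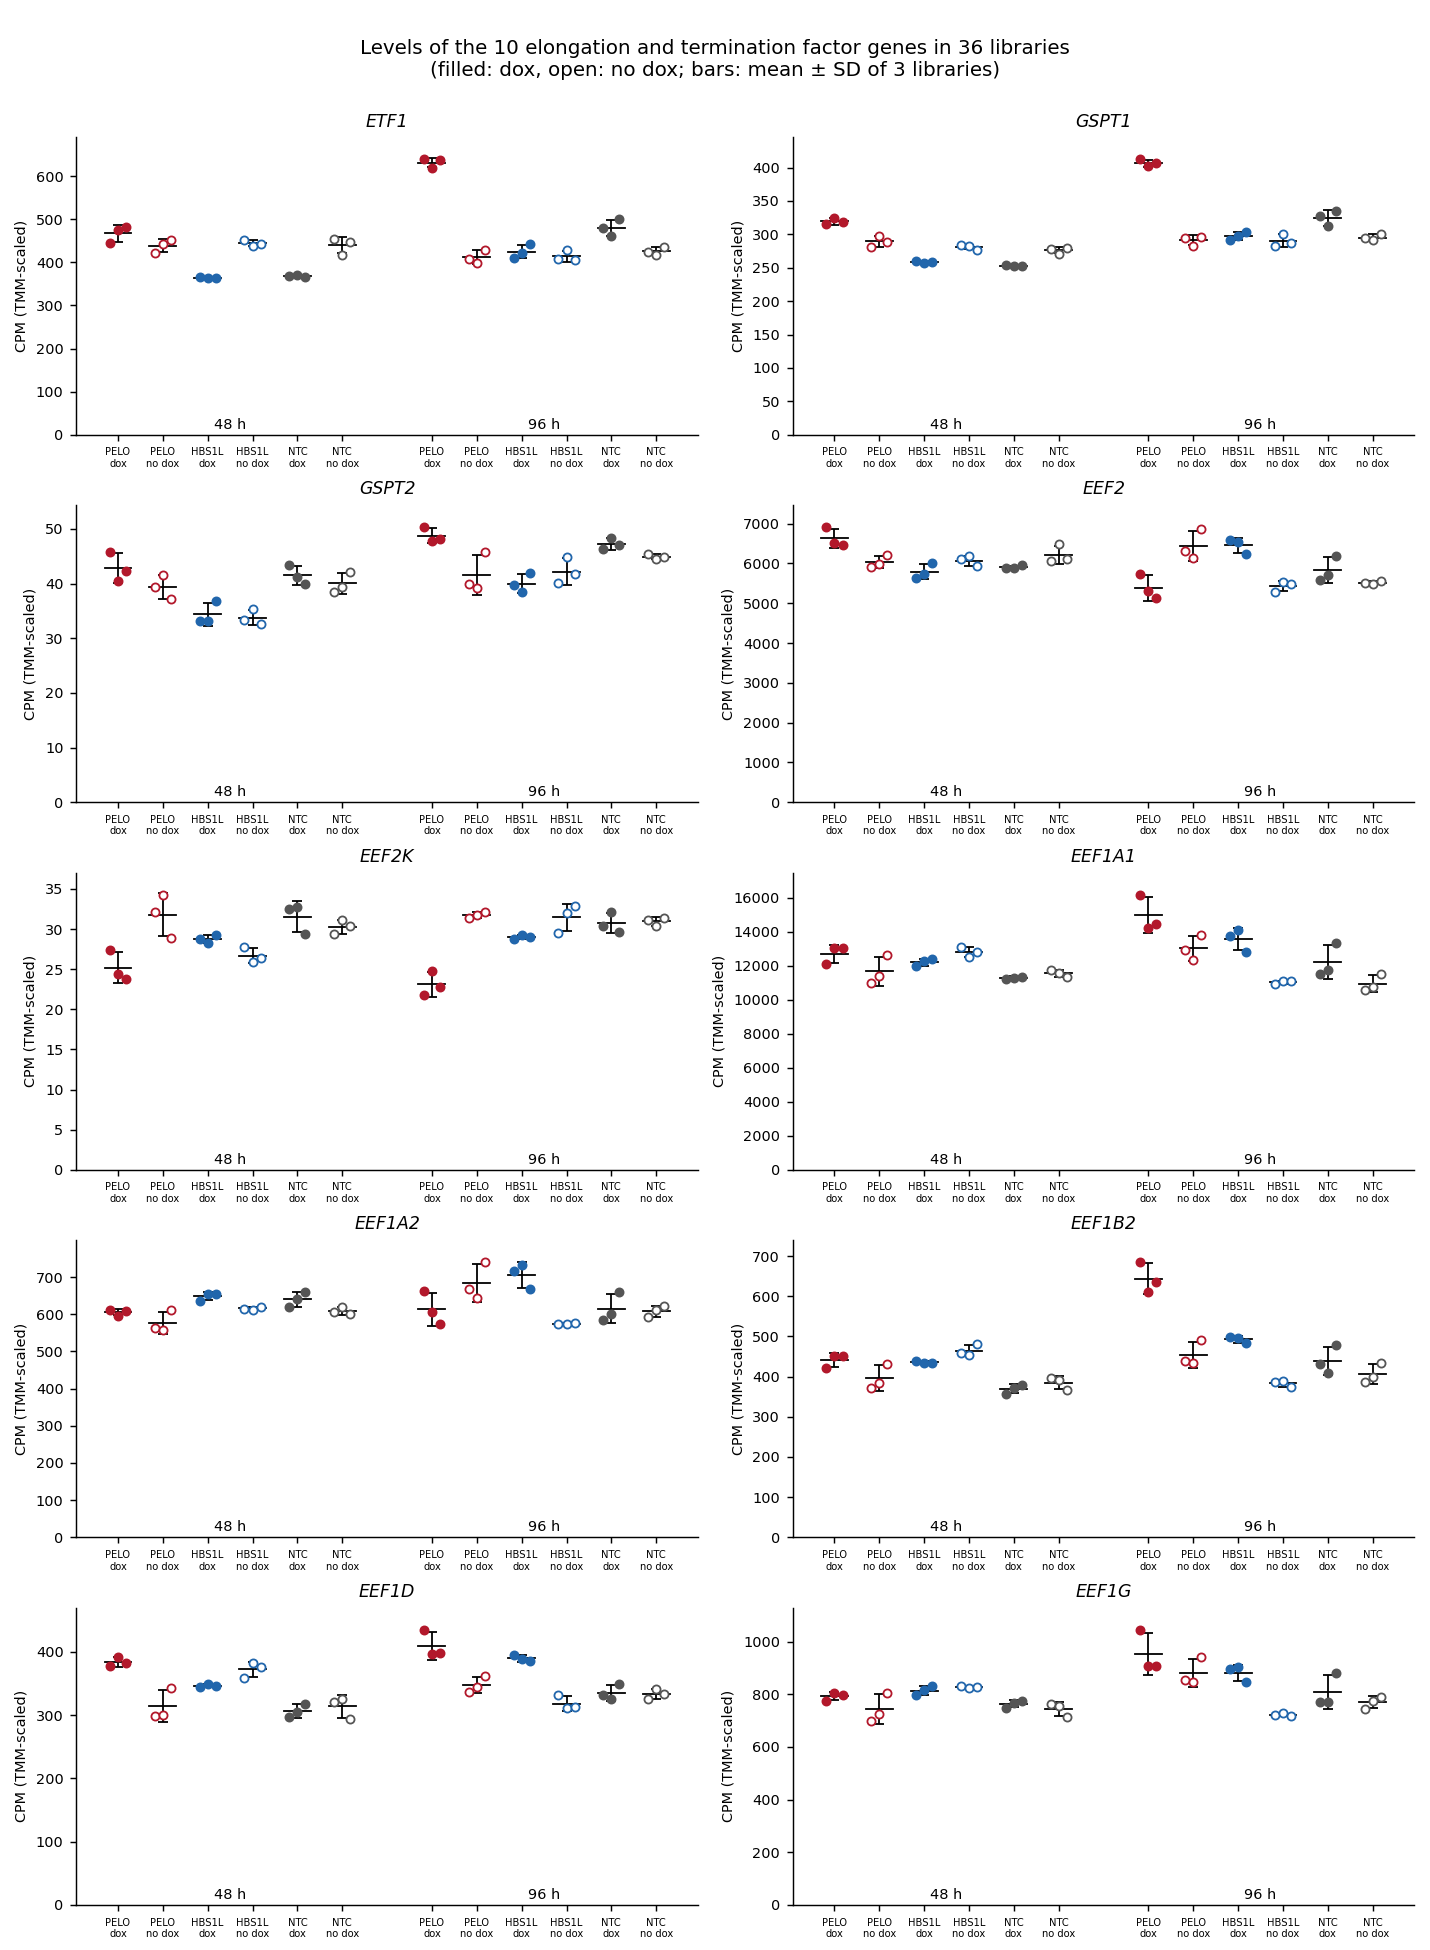
Level of each of the 10 genes in the 36 libraries, in CPM on TMM-scaled library sizes (vertical axes from 0), for the PELO, HBS1L and NTC lines with dox (filled) and without dox (open) at 48 h and 96 h; horizontal and vertical bars are the mean and SD of 3 libraries. In PELO with dox at 96 h, ETF1 lies at 619 to 639 CPM, GSPT1 at 402 to 412 CPM and EEF1B2 at 610.2 to 685 CPM, above the other 15 libraries of that time, and EEF2K at 21.8 to 24.8 CPM lies below them.

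The main comparison was the response of a targeted line to dox minus that of the control line, tested with edgeR's quasi-likelihood F test over all genes with Benjamini-Hochberg adjustment at 0.05. In the PELO line at 48 h, 5 of 10 members rose, beside 22.9% of all genes tested, and 1 fell, beside 24.9% of all genes. At 96 h, 4 rose, beside 28.7%, and 3 fell, beside 26.0%. The share of members called is near that of the genome at both times, so the count itself says nothing particular about them. Their median log2 change was 0.18 at 48 h and 0.10 at 96 h, against -0.04 and 0.02 over all genes. In the HBS1L line at 48 h, no member rose, beside 1.41% of genes, and none fell, beside 2.44%; with DESeq2 the count was also 0, and unadjusted p was under 0.05 for 0 members. At 96 h, 3 rose, beside 5.41%, and none fell, beside 5.32%. With each library left out in turn that count of 3 ranged over 2 to 5, and was 5 without NTC dox 96 h replicate 3. The counts without the 7 libraries that stand apart were 8 at 48 h and 8 at 96 h in the PELO line, and 0 and 7 in the HBS1L line. Over all genes, 10113 and 11113 passed in the PELO line without them, against 9939 and 11376 with all libraries. In the HBS1L line 2067 and 3611 passed, against 799 and 2228. The members' median in the HBS1L line at 96 h was 0.15, against 0.01 over all genes. The PELO and HBS1L comparisons share their NTC libraries. In bulk RNA, fewer cells of a kind and less RNA per cell cannot be told apart.

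**Figure D2:**
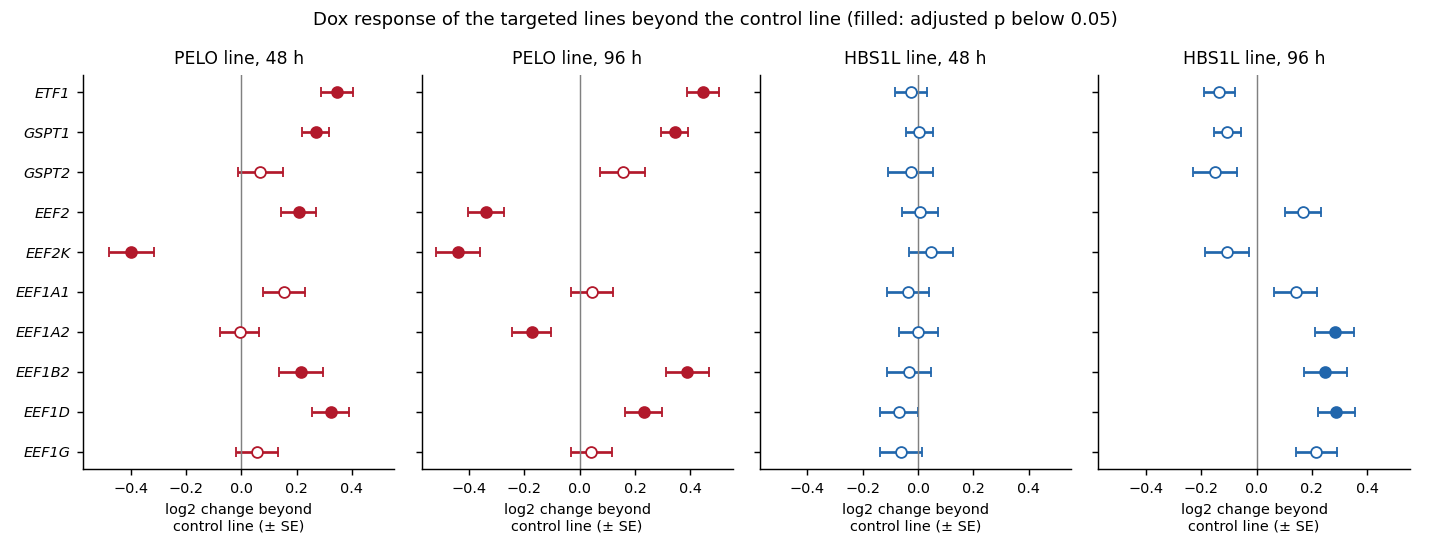
Log2 change of each gene with dox against no dox in the PELO line (red) or HBS1L line (blue) minus the same change in the control line, ± SE, at 48 h and 96 h; filled symbols have an adjusted p below 0.05. ETF1, GSPT1, EEF1B2 and EEF1D lie above 0 in the PELO line at both times and EEF2K below 0, EEF2 lies at 0.21 at 48 h and -0.34 at 96 h, and the HBS1L line at 48 h has no filled symbol.

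ETF1 and GSPT1, the release factor genes with the higher levels, rose in the PELO line at both times, while GSPT2 did not pass. ETF1 (ENSG00000120705, chr5:138506095-138543300, minus strand), which encodes eRF1, had 639, 619 and 637 CPM in PELO with dox and 408, 398 and 429 CPM in PELO without dox at 96 h, against 479, 461 and 499.8 CPM in NTC with dox and 424, 418 and 435 CPM in NTC without dox. The libraries of PELO with dox lie above every other library of that time and do not overlap with any group. The response beyond the control line was 0.44 ± 0.06 (adjusted p = 2.4e-08) on the log2 scale (± SE). GSPT1 (ENSG00000103342, chr16:11868128-11916082, minus strand), the main eRF3 gene by level, had 412, 402 and 406 CPM in PELO with dox and 295, 282 and 296 CPM in PELO without dox, against 328, 312 and 336 CPM in NTC with dox and 294, 291 and 301 CPM in NTC without dox. Again the libraries of PELO with dox are the highest at 96 h, with no overlap. GSPT1 rose by 0.34 ± 0.05 (adjusted p = 1.3e-07) beyond the control line.

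At 48 h much of the same difference lay in the control line. ETF1 had 444, 476 and 482 CPM in PELO with dox and 422, 443 and 453 CPM in PELO without dox, against 368, 371 and 365 CPM in NTC with dox and 454, 418 and 448 CPM in NTC without dox. Within the PELO line these ranges overlap, whereas NTC with dox lies wholly below NTC without dox. The response beyond the control line was 0.35 ± 0.06 (adjusted p = 3.9e-06), made of 0.09 (adjusted p = 0.068) within the PELO line and -0.26 (adjusted p = 3.3e-06) within the control line. The value within the PELO line without the 7 libraries that stand apart was 0.15 with an adjusted p of 0.0015, and it also passed with RLE size factors (0.040), on libraries of 48 h alone (0.023) and with DESeq2 (0.034). GSPT1 had 315, 325 and 319 CPM in PELO with dox and 282, 298 and 288 CPM in PELO without dox, against 254, 252 and 253 CPM in NTC with dox and 279, 271 and 279 CPM in NTC without dox. PELO with dox was the highest group for GSPT1 at 48 h too, without overlap with the others. GSPT1 rose by 0.27 ± 0.05 (adjusted p = 1.4e-05) beyond the control line, with 0.14 (adjusted p = 6.2e-04) within the PELO line and -0.13 (adjusted p = 0.0033) within the control line. Both of these within-line calls were lost with no filter on low counts, with adjusted p of 0.067 and 0.15.

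The control line's own dox response ran in opposite directions at the 2 times. ETF1 changed by -0.26 at 48 h (adjusted p = 3.3e-06) and by 0.17 at 96 h (adjusted p = 0.0068) in NTC, and GSPT1 by -0.13 (adjusted p = 0.0033) and 0.14 (adjusted p = 0.0093). Both calls of NTC at 96 h are lost, with adjusted p between 0.061 and 0.087, on leaving out NTC no dox 96 h replicate 2 or NTC dox 96 h replicate 3. The GSPT1 call there is also lost with total count scaling (0.056), with no filter (0.058) and on libraries of 96 h alone (0.056). In the HBS1L line both genes were lower with dox at 48 h, with ETF1 at -0.28 (adjusted p = 1.6e-06) and GSPT1 at -0.12 (adjusted p = 0.0072), and at 96 h it stood at 0.04 (adjusted p = 0.57) and 0.03 (adjusted p = 0.54). The GSPT1 call in HBS1L at 48 h was lost, with adjusted p between 0.0502 and 0.056, on leaving out HBS1L no dox 48 h replicate 1 or HBS1L dox 48 h replicate 2, and with no filter (0.17). Beyond the control line ETF1 in the HBS1L line was at -0.02 ± 0.06 (adjusted p = 0.88) and -0.13 ± 0.06 (adjusted p = 0.14) at 48 h and 96 h, and GSPT1 at 0.00 ± 0.05 (adjusted p = 0.98) and -0.11 ± 0.05 (adjusted p = 0.17). The ETF1 value at 96 h passed without the 7 libraries that stand apart, at -0.15 with an adjusted p of 0.039. The PELO response exceeded the HBS1L response for ETF1 by 0.37 ± 0.06 at 48 h (adjusted p = 1.5e-06) and 0.58 ± 0.06 at 96 h (adjusted p = 5.9e-11), and for GSPT1 by 0.27 ± 0.05 (adjusted p = 2.1e-05) and 0.45 ± 0.05 (adjusted p = 3.8e-10).

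In proportion to each other, ETF1 per kb stood 2.71 ± 0.023 times above GSPT1 in PELO with dox at 96 h and 2.57 ± 0.025 times above it in NTC with dox (SD, n = 3). Over the 12 group means their log2 levels had a Pearson r of 0.956, the highest between any pair of members; the points share their libraries in sets of 3 and carry no test. GSPT2 (ENSG00000189369, chrX:51743431-51746232, plus strand), the second eRF3 gene, was at 48.8 ± 1.39 CPM in PELO with dox and 41.6 ± 3.65 CPM in PELO without dox at 96 h, against 47.3 ± 1.06 CPM in NTC with dox and 44.9 ± 0.414 CPM in NTC without dox (SD, n = 3). Beyond the control line it did not pass the test, with 0.07 ± 0.08 (adjusted p = 0.52) in PELO at 48 h and, at 96 h, 0.15 ± 0.08 (adjusted p = 0.10). In HBS1L cells the values were -0.03 ± 0.08 at 48 h (adjusted p = 0.92) and -0.15 ± 0.08 at 96 h (adjusted p = 0.26). Leaving out PELO no dox 96 h replicate 3 brought the PELO value at 96 h past the threshold, at 0.21 with an adjusted p of 0.022, as did leaving out the 7 libraries that stand apart (0.21, adjusted p = 0.027). GSPT1 and GSPT2 are paralogs, and how reads that fit both were counted is not given in the sources used here.

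EEF2 rose beyond the control line at 48 h and fell at 96 h in the PELO line. EEF2 (ENSG00000167658, chr19:3976056-3985469, minus strand), the translocase, had 6915, 6503 and 6463 CPM in PELO with dox and 5915, 5997 and 6217 CPM in PELO without dox at 48 h, against 5873, 5893 and 5949 CPM in NTC with dox and 6056, 6477 and 6115 CPM in NTC without dox. PELO with dox lies above PELO without dox and NTC with dox, and overlaps with the upper end of NTC without dox. It rose by 0.21 ± 0.06 (adjusted p = 0.0074) beyond the control line. At 96 h it had 5741, 5298 and 5120.1 CPM in PELO with dox and 6308, 6134 and 6871 CPM in PELO without dox, against 5591, 5716 and 6196 CPM in NTC with dox and 5517, 5477 and 5552 CPM in NTC without dox. Here PELO with dox lies wholly below PELO without dox but overlaps with both NTC groups. EEF2 fell beyond the control line, with a log2 change of -0.34 ± 0.06 (adjusted p = 2.5e-05).

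The 96 h response minus the 48 h response of EEF2 in the PELO line was -0.55 ± 0.09 (adjusted p = 2.7e-05), the only one among the 10 members to pass, beside 20.5% of all genes in that comparison. EEF1A1 passed too without the 7 libraries that stand apart, at -0.19 with an adjusted p of 0.016. Part of the fall at 96 h stands in the untreated cells: PELO without dox was above NTC without dox by 0.22 ± 0.05 (adjusted p = 3.8e-04), while PELO with dox was below NTC with dox by a log2 difference of -0.12 ± 0.05 (adjusted p = 0.026). That last call was lost, with adjusted p between 0.055 and 0.14, on leaving out NTC dox 96 h replicate 3 or PELO dox 96 h replicates 2 and 3, and on libraries of 96 h alone (0.052). EEF2 in the HBS1L line was at 6456 ± 188 CPM with dox and 5433 ± 132 CPM without dox at 96 h (SD, n = 3), and groups did not overlap. Beyond the control line this was 0.17 ± 0.06 (adjusted p = 0.090), which did not pass; without NTC dox 96 h replicate 3 it was 0.21 with an adjusted p of 0.033, with total count scaling 0.19 (adjusted p = 0.011) and without the 7 libraries that stand apart 0.23 (adjusted p = 4.5e-04). The PELO response minus the HBS1L response was 0.20 ± 0.06 at 48 h (adjusted p = 0.010) and -0.51 ± 0.06 at 96 h (adjusted p = 1.7e-08).

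EEF2K fell in the PELO line at both times. EEF2K (ENSG00000103319, chr16:22206282-22288732, plus strand), the calmodulin-dependent kinase that switches eEF2 off, had 27.4, 24.4 and 23.7 CPM in PELO with dox and 32.2, 34.3 and 28.9 CPM in PELO without dox at 48 h, against 32.5, 32.8 and 29.4 CPM in NTC with dox and 29.3, 31.1 and 30.3 CPM in NTC without dox. At 96 h it had 21.8, 24.8 and 22.8 CPM in PELO with dox and 31.3, 31.7 and 32.1 CPM in PELO without dox, against 30.4, 32.2 and 29.7 CPM in NTC with dox and 31.2, 30.4 and 31.4 CPM in NTC without dox. PELO with dox lies below these PELO and NTC groups at both times, with no overlap. HBS1L without dox at 48 h, at 25.9 to 27.7 CPM, does overlap with it. In the PELO line the log2 change beyond the control line was -0.40 ± 0.08 at 48 h (adjusted p = 9.0e-05) and -0.44 ± 0.08 at 96 h (adjusted p = 1.3e-05). In the HBS1L line it was 0.05 ± 0.08 (adjusted p = 0.84) and -0.11 ± 0.08 (adjusted p = 0.45), and the PELO response was below the HBS1L response by a log2 difference of -0.44 ± 0.08 (adjusted p = 2.4e-05) and -0.33 ± 0.08 (adjusted p = 5.5e-04). The antisense gene AC009034.1 overlaps 8.83% of the merged exons of EEF2K, and whether counting used strand is not given in the sources used here.

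EEF1A1 (ENSG00000156508, chr6:73515750-73523797, minus strand), the most counted member, had 16179, 14242 and 14460.5 CPM in PELO with dox and 12900.4, 12340.2 and 13822 CPM in PELO without dox at 96 h, against 11487, 11759.8 and 13343 CPM in NTC with dox and 10596, 10715 and 11524 CPM in NTC without dox. PELO with dox is the highest group, above every library of the other 3. Within the PELO line it rose by 0.20 ± 0.05 (adjusted p = 0.0014), a call lost without PELO dox 96 h replicate 1, at 0.12 with an adjusted p of 0.067. Beyond the control line it did not pass, with 0.15 ± 0.08 at 48 h (adjusted p = 0.097) and 0.04 ± 0.08 at 96 h (adjusted p = 0.66) in the PELO line, and -0.04 ± 0.08 (adjusted p = 0.87) and 0.14 ± 0.08 (adjusted p = 0.27) in the HBS1L line. Without PELO no dox 48 h replicate 3 the PELO value at 48 h was 0.21 with an adjusted p of 0.029, and fitted on the libraries of 48 h alone it was 0.19 with an adjusted p of 0.0097. Without the 7 libraries that stand apart it was 0.25 (adjusted p = 1.7e-06), and the HBS1L value at 96 h was 0.21 (adjusted p = 3.3e-04). PELO without dox was above NTC without dox at 96 h, by 0.25 ± 0.05 (adjusted p = 7.6e-04). Per kb, EEF1A1 stood 1.88 ± 0.052 times above EEF2 in PELO with dox at 96 h and 1.37 ± 0.013 times above it in PELO without dox, against 1.41 ± 0.038 in NTC with dox and 1.34 ± 0.055 in NTC without dox (SD, n = 3).

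EEF1A1 has 49 annotated pseudogenes with a row in the table, and together they held 34.6% to 37.8% of the counts of the gene and its pseudogenes. EEF1A1P5 had 36.4% to 41.6% and EEF1A1P6 15.1% to 17.9% of the level of EEF1A1, in proportion to it across libraries. Reads that fit several of these copies may have been split among them, so the level of EEF1A1 is uncertain by that share. EEF1A1P5 had changes of 0.15 ± 0.07 (adjusted p = 0.064) and 0.08 ± 0.07 (adjusted p = 0.35) beyond the control line in the PELO line at 48 h and 96 h, and adding the pseudogene counts to each member changed no call. EEF1B2 has 8 pseudogene rows with 2.41% to 4.27% of its family's counts. Those of ETF1, EEF1D and EEF1G held at most 0.315%, and the other members had none.

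**Figure D3:**
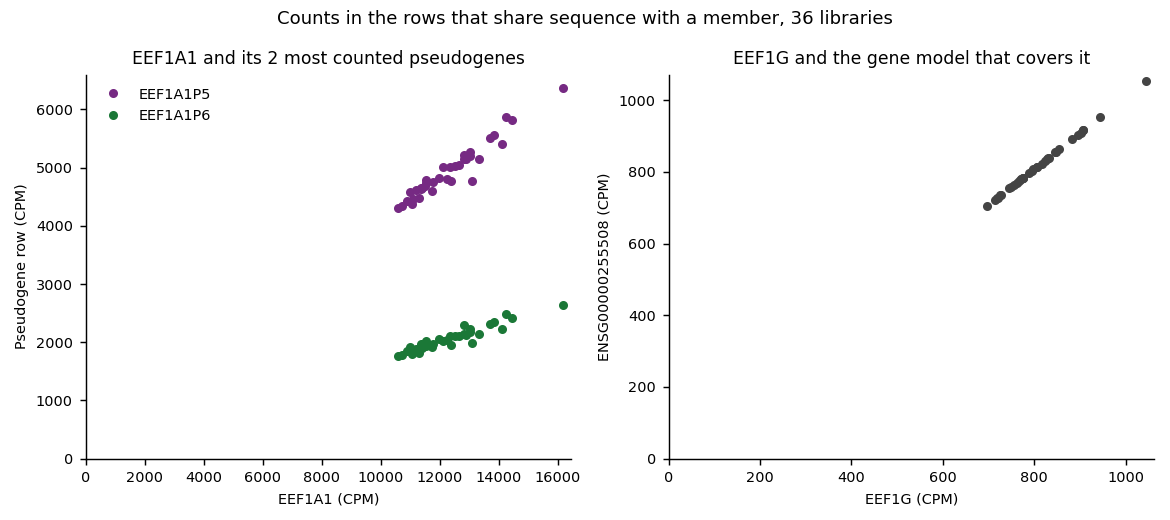
Left, level of the pseudogene rows EEF1A1P5 (purple) and EEF1A1P6 (green) against that of EEF1A1; right, level of ENSG00000255508 against that of EEF1G, in CPM on linear axes from 0, with 1 point per library (36). Each set of points lies near a straight line through the origin, with EEF1A1P5 at 36.4% to 41.6% of EEF1A1 and ENSG00000255508 at 101% of EEF1G.

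EEF1A2 (ENSG00000101210, chr20:63488012-63499322, minus strand), the paralog that is normally found in muscle and neurons, moved apart in the targeted lines at 96 h. HBS1L cells had 717, 734 and 667 CPM with dox and 572, 575 and 575 CPM without dox, against 585, 600.5 and 659 CPM in NTC with dox and 592, 611 and 622 CPM in NTC without dox. HBS1L with dox lies above every library of the other 3 groups. It rose by 0.28 ± 0.07 (adjusted p = 0.0070) beyond the control line. In the PELO line it had 662, 605 and 573 CPM with dox and 669, 644 and 740.3 CPM without dox, ranges that overlap. It fell there, with a log2 change of -0.17 ± 0.07 (adjusted p = 0.035). In 5 of 12 cases with a library left out the call was lost, with adjusted p between 0.051 and 0.099. Those libraries were NTC no dox 96 h replicates 1 and 2, NTC dox 96 h replicate 3, PELO no dox 96 h replicate 3 and PELO dox 96 h replicate 3. The call was also lost with no filter (0.061) and on libraries of 96 h alone (0.058). The PELO response minus the HBS1L response was -0.46 ± 0.07 (adjusted p = 7.4e-07). At 48 h the values were -0.01 ± 0.07 (adjusted p = 0.96) in PELO and 0.00 ± 0.07 (adjusted p = 1.0) in HBS1L. Per kb EEF1A1 stood 20.1 ± 0.7 times above EEF1A2 in PELO with dox at 96 h and 15.7 ± 0.27 times above it in PELO without dox, against 16.4 ± 0.31 in NTC with dox and 14.9 ± 0.42 in NTC without dox (SD, n = 3).

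Of the exchange factor subunits, EEF1B2 and EEF1D rose in the PELO line at both times and in the HBS1L line at 96 h. EEF1B2 (ENSG00000114942, chr2:206159585-206162928, plus strand), which encodes a catalytic subunit, had 685, 610.2 and 636 CPM in PELO with dox and 438, 433 and 491 CPM in PELO without dox at 96 h, against 431, 410.3 and 478 CPM in NTC with dox and 386, 399 and 434 CPM in NTC without dox. PELO with dox stands clear of every other library. The rise beyond the control line was 0.39 ± 0.08 (adjusted p = 6.4e-05). At 48 h EEF1B2 had 421, 451 and 452 CPM in PELO with dox and 372, 383 and 432 CPM in PELO without dox, against 357, 371 and 380.3 CPM in NTC with dox and 396, 393 and 367 CPM in NTC without dox. PELO with dox overlaps with PELO without dox and lies above both NTC groups. HBS1L without dox at 48 h, at 455 to 480 CPM, lies above it, and HBS1L with dox, at 433 to 440 CPM, lies within its range. The change beyond the control line in the PELO line was 0.22 ± 0.08 (adjusted p = 0.023). It was lost in 7 of 12 cases with a library left out, with adjusted p between 0.065 and 0.11. Those libraries were NTC no dox 48 h replicates 1 and 2, NTC dox 48 h replicate 1, PELO no dox 48 h replicates 1 and 2 and PELO dox 48 h replicates 2 and 3.

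EEF1B2 in the HBS1L line had 498, 497 and 483 CPM with dox and 386, 389 and 374 CPM without dox at 96 h, and the groups do not overlap. The rise beyond the control line was 0.25 ± 0.08 (adjusted p = 0.036). It was lost in 9 of 12 cases with a library left out, with adjusted p between 0.055 and 0.14. Those libraries were NTC no dox 96 h replicates 2 and 3, NTC dox 96 h replicates 1 and 2, HBS1L no dox 96 h replicates 1, 2 and 3 and HBS1L dox 96 h replicates 1 and 2. On the libraries of 96 h alone the adjusted p was 0.079. At 48 h it was -0.03 ± 0.08 (adjusted p = 0.89). NDUFS1, on the opposite strand, overlaps part of the 17.4% of merged exon length that EEF1B2 shares with other genes. It had 20.4% to 45.3% of the level of EEF1B2. NDUFS1 fell in the PELO line, with -0.20 at 48 h (adjusted p = 9.1e-04) and -0.31 at 96 h (adjusted p = 1.8e-06).

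EEF1D (ENSG00000104529, chr8:143579697-143599541, minus strand), which encodes the other catalytic subunit, had 377, 392 and 382 CPM in PELO with dox and 298, 300.4 and 344 CPM in PELO without dox at 48 h, against 296, 304 and 318 CPM in NTC with dox and 321, 326 and 294 CPM in NTC without dox. At 96 h it had 435, 396 and 398 CPM in PELO with dox and 337, 345 and 361 CPM in PELO without dox, against 332, 325 and 349 CPM in NTC with dox and 326, 341 and 334 CPM in NTC without dox. PELO with dox lies above these PELO and NTC groups at both times, with no overlap. HBS1L without dox at 48 h, at 359 to 382 CPM, does overlap with it. In the PELO line the rise beyond the control line was 0.32 ± 0.07 (adjusted p = 1.2e-04) and 0.23 ± 0.07 (adjusted p = 0.0036). At 96 h EEF1D in the HBS1L line had 396, 389 and 385 CPM with dox and 331, 310.5 and 313 CPM without dox, and it rose by 0.29 ± 0.07 (adjusted p = 0.0040). At 48 h the HBS1L value was -0.07 ± 0.07 (adjusted p = 0.68), and the difference between the times, 0.36 ± 0.10 (adjusted p = 0.032), was the only one to pass among the members, beside 3.07% of all genes. With the 7 libraries that stand apart left out 6 members passed, adding EEF2, EEF1A1, EEF1A2, EEF1B2 and EEF1G at 0.23 to 0.36, all higher at 96 h. Over all genes 2461 passed in that fit, against 637 with all libraries, so the calls rose across the genome too. The EEF1D call was lost in 14 of 24 cases with a library left out, with adjusted p between 0.053 and 0.094. Those libraries were NTC no dox 48 h replicate 3, NTC dox 48 h replicates 2 and 3, HBS1L no dox 48 h replicates 2 and 3, HBS1L dox 48 h replicates 1 and 3, NTC no dox 96 h replicate 2, NTC dox 96 h replicates 1 and 2, HBS1L no dox 96 h replicates 2 and 3 and HBS1L dox 96 h replicates 1 and 2.

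EEF1D shares 34.0% of its merged exon length with other genes, among them TIGD5 on the opposite strand, which had 4.55% to 10.1% of its level. TIGD5 rose by 0.94 ± 0.09 (adjusted p = 2.6e-11) and 1.13 ± 0.09 (adjusted p = 7.0e-14) in the PELO line at 48 h and 96 h, and its part in the EEF1D counts was not tested. EEF1G (ENSG00000254772, chr11:62559601-62574086, minus strand), the structural subunit, did not pass beyond the control line, with 0.06 ± 0.08 (adjusted p = 0.58) and 0.04 ± 0.08 (adjusted p = 0.66) in PELO at 48 h and 96 h, and -0.06 ± 0.08 (adjusted p = 0.75) and 0.22 ± 0.08 (adjusted p = 0.059) in HBS1L. The last value passes without NTC dox 96 h replicate 3 or HBS1L dox 96 h replicate 3, with adjusted p between 0.013 and 0.040, and with total count scaling (0.0077), no filter (0.023) or DESeq2 (0.045). Without the 7 libraries that stand apart it was 0.29 (adjusted p = 1.9e-05), and the PELO value at 48 h was 0.13 (adjusted p = 0.0097). Its levels were 881 ± 30.0 CPM in HBS1L with dox and 722 ± 4.69 CPM in HBS1L without dox at 96 h, against 809 ± 63.6 CPM in NTC with dox and 769 ± 22.1 CPM in NTC without dox (SD, n = 3). The gene model ENSG00000255508 covers 99.9% of the merged exons of EEF1G and had 101% of its level in each library, so its counts cannot be told apart from those of EEF1G.

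The other comparisons place these changes. Within lines, dox against no dox called 4 members higher and 1 lower in PELO at 48 h, beside 48.0% of all genes, and 6 higher and 3 lower at 96 h, beside 66.8%. HBS1L cells had 2 lower and none higher at 48 h, beside 21.5%, and 6 higher and none lower at 96 h, beside 19.9%. The control line had 2 lower at 48 h, beside 35.0%, and 2 higher at 96 h, beside 7.52%, which are ETF1 and GSPT1 each time. The PELO count of 5 at 48 h was 3 without PELO no dox 48 h replicate 1, and the HBS1L count at 48 h was 1 without HBS1L no dox 48 h replicate 1 or HBS1L dox 48 h replicate 2. In HBS1L at 96 h the 6 that rose were all 5 of the eEF1 genes and EEF2, each by 0.25 to 0.36 on the log2 scale, against a median of -0.01 over all genes. PELO with dox against NTC with dox gave 6 higher and 1 lower at 48 h, beside 57.3%, and 6 higher and 2 lower at 96 h, beside 64.3%. HBS1L with dox against NTC with dox gave 2 higher and 1 lower at 48 h, beside 23.1%, and 5 higher and 3 lower at 96 h, beside 29.8%. That count of 8 was 5 without NTC dox 96 h replicate 1 or 2 or HBS1L dox 96 h replicate 1 or 2. The count within lines at 48 h without the 7 libraries that stand apart was 9 in PELO, 6 in HBS1L and 4 in NTC, and HBS1L with dox against NTC with dox at 48 h gave 6. The shares of all genes given above belong to the fit with all libraries, so these last counts cannot be read against them.

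Cultures grown without dox also differed between lines, and not in the same way at the 2 times. PELO without dox against NTC without dox had no member called at 48 h, beside 11.1% of all genes, and 1 without the 7 libraries that stand apart. At 96 h it had 5 higher at 96 h, beside 21.8%, which were EEF2, EEF1A1, EEF1A2, EEF1B2 and EEF1G at 0.16 to 0.25 on the log2 scale. The count was 3 without NTC no dox 96 h replicate 1 or PELO no dox 96 h replicate 3. The EEF1A2 call was lost without either of these, the EEF1B2 call without either or NTC no dox 96 h replicate 2, and the EEF1G call without PELO no dox 96 h replicate 3, with adjusted p between 0.052 and 0.23. HBS1L without dox against NTC without dox had 4 higher and 2 lower at 48 h, beside 37.9%, and none at 96 h, beside 0.135%. The 4 higher at 48 h were EEF1A1, EEF1B2, EEF1D and EEF1G, and the lower ones were GSPT2 and EEF2K. The EEF1A1 call was lost, with adjusted p between 0.061 and 0.094, without NTC no dox 48 h replicate 2 or 3 or HBS1L no dox 48 h replicate 1 or 3, and with total count scaling (0.16). The EEF2K call was lost without NTC no dox 48 h replicate 2 or HBS1L no dox 48 h replicate 2 (both 0.065) and with no filter (0.052), and the EEF1G call without NTC no dox 48 h replicate 3 (0.11) and with total count scaling (0.13). The PELO response minus the HBS1L response called 6 members higher and 1 lower at 48 h, beside 43.2%, and 3 higher and 4 lower at 96 h, beside 55.5%.

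Genes that act with the factors were read from 7 lists, and the changes given for them are beyond the control line. Over all genes tested, 22.9% rose and 24.9% fell in that comparison in the PELO line at 48 h, and 28.7% and 26.0% at 96 h. In the HBS1L line these shares were 1.41% and 2.44% at 48 h, and 5.41% and 5.32% at 96 h. Of the 8 genes that build diphthamide on eEF2, the modified histidine that diphtheria toxin attacks, or that methylate eEF2, 5 rose and 1 fell in the PELO line at 48 h, beside 22.9% and 24.9% of all genes, and 5 rose and 1 fell at 96 h, beside 28.7% and 26.0%. The list's median was 0.34 and 0.42 on the log2 scale, against -0.04 and 0.02 over all genes. None passed in the HBS1L line at either time. DPH2, part of the enzyme of the first step, had 67.6 ± 2.09 CPM in PELO with dox and 30.5 ± 0.214 CPM in PELO without dox at 96 h, against 37.5 ± 1.71 CPM in NTC with dox and 37.4 ± 1.98 CPM in NTC without dox (SD, n = 3). It rose by 0.62 ± 0.07 at 48 h (adjusted p = 1.6e-09) and 1.14 ± 0.07 at 96 h (adjusted p = 8.5e-17). EEF2KMT, the lysine methyltransferase of eEF2, rose by 0.63 ± 0.09 (adjusted p = 2.6e-07) and 0.78 ± 0.09 (adjusted p = 9.1e-10). DPH6, the ligase of the last step, had 20.7 ± 1.40 CPM in PELO with dox and 82.5 ± 6.81 CPM in PELO without dox, against 80.9 ± 5.10 CPM in NTC with dox and 88.4 ± 7.11 CPM in NTC without dox. It fell, with a log2 change of -1.34 ± 0.10 (adjusted p = 4.6e-14) and -1.87 ± 0.10 (adjusted p = 4.1e-18), opposite to the other members of the list that passed.

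Among 8 partners in recycling and rescue, which include the guide targets PELO and HBS1L, 2 rose and 1 fell in the PELO line at 48 h, and 4 rose and 1 fell at 96 h, with medians of -0.02 and 0.19 on the log2 scale. That share called is below that of all genes at 48 h and near it at 96 h. For the HBS1L line, 1 rose and 1 fell at 48 h, and 2 rose and 2 fell at 96 h. The gene that fell at 48 h, and 1 of those that fell at 96 h, was HBS1L, the guide's own target in that line. GTPBP2, a GTPase related to HBS1L that is linked to stalled ribosomes in mouse, had 145 ± 5.56 CPM in PELO with dox and 83.7 ± 2.62 CPM in PELO without dox at 48 h, against 45.5 ± 0.653 CPM in NTC with dox and 114 ± 4.58 CPM in NTC without dox (SD, n = 3). Its response was 2.12 ± 0.08 (adjusted p = 5.8e-22) in PELO and 0.56 ± 0.08 (adjusted p = 3.5e-05) in HBS1L at 48 h, and 1.63 ± 0.08 (adjusted p = 2.4e-18) and 0.49 ± 0.08 (adjusted p = 1.4e-04) at 96 h. Since GTPBP2 was lower with dox in NTC at 48 h, much of the PELO value at 48 h lies in the control line. The HBS1L value of 0.56 at 48 h is smaller than that fall in NTC, from 114 to 45.5 CPM. It is therefore not a rise with dox within the HBS1L line. HBS1L mRNA in the PELO line was lower at 48 h, with -0.19 ± 0.05 (adjusted p = 6.5e-04), and higher at 96 h, with 0.51 ± 0.04 (adjusted p = 2.9e-12). ABCE1, the ATPase that splits the ribosome after termination, rose in PELO at 96 h by 0.38 ± 0.06 (adjusted p = 6.4e-07) and fell in HBS1L at 96 h, with -0.28 ± 0.06 (adjusted p = 0.0014). Of 4 genes that modify eRF1 or eRF3, 1 rose and 1 fell in PELO at 48 h, and likewise 1 and 1 at 96 h, with medians of -0.03 and 0.06. JMJD4, the hydroxylase of eRF1, rose by 0.64 ± 0.09 (adjusted p = 2.0e-07) and 0.61 ± 0.09 (adjusted p = 2.9e-07). TRMT112, the partner of the eRF1 methyltransferase N6AMT1, fell, with a log2 change of -0.70 ± 0.08 (adjusted p = 8.0e-10) and -0.38 ± 0.07 (adjusted p = 4.3e-05). Of the same 4, 1 fell in the HBS1L line at 48 h, TRMT112 with -0.32 ± 0.08 (adjusted p = 0.0094), a call that was lost without NTC no dox 48 h replicate 3, NTC dox 48 h replicate 3 or HBS1L no dox 48 h replicate 3, and none passed at 96 h.

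Of 8 genes for calmodulin and for kinases that switch eEF2K on or off, 1 rose and 3 fell in the PELO line at 48 h, and 1 rose and 3 fell at 96 h, with medians of -0.08 and -0.08. The share called is near that of all genes at both times. None rose and 2 fell in the HBS1L line at 48 h, and none passed at 96 h. CALM3, a calmodulin gene, had 222 ± 12.5 CPM in PELO with dox and 421 ± 11.9 CPM in PELO without dox at 96 h, against 474 ± 20.5 CPM in NTC with dox and 463 ± 9.81 CPM in NTC without dox (SD, n = 3). It fell at both times, with -0.70 ± 0.06 (adjusted p = 7.0e-13) and -0.96 ± 0.06 (adjusted p = 8.8e-17). RPS6KA1, a kinase that inhibits eEF2K, fell with -0.46 ± 0.07 (adjusted p = 1.4e-06) and -0.45 ± 0.07 (adjusted p = 5.1e-07). PRKAA2, a catalytic subunit of AMPK, which activates eEF2K, rose by 0.62 ± 0.11 (adjusted p = 6.6e-06) and 0.95 ± 0.11 (adjusted p = 1.0e-09) at a low level of 18.4 ± 0.978 CPM in PELO with dox and 6.83 ± 0.304 CPM in PELO without dox at 96 h. CALM2 fell in the PELO line at 48 h, with -0.38 ± 0.08 (adjusted p = 1.1e-04), and did not pass there at 96 h, with -0.13 ± 0.08 (adjusted p = 0.16). The 2 that fell in the HBS1L line at 48 h were CALM2 with -0.37 ± 0.08 (adjusted p = 0.0037) and CALM3 with -0.21 ± 0.06 (adjusted p = 0.023). The count of 2 was 1 in 8 of 21 alternatives. Those were no filter on low counts and, each left out in turn, NTC no dox 48 h replicate 3, NTC dox 48 h replicates 2 and 3, HBS1L no dox 48 h replicates 1 and 3 and HBS1L dox 48 h replicates 1 and 2.

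Of 5 methyltransferases of eEF1A, none rose and 1 fell in the PELO line at 48 h, which was EEF1AKMT3 with -0.32 ± 0.13 (adjusted p = 0.042), and 3 rose and none fell at 96 h, with medians over the 5 of 0.07 and 0.36. Those at 96 h were METTL13 with 0.44 ± 0.06 (adjusted p = 5.1e-08), EEF1AKMT4 with 0.65 ± 0.11 (adjusted p = 1.8e-06) and EEF1AKMT1 with 0.36 ± 0.11 (adjusted p = 0.0039). The EEF1AKMT3 call was lost on leaving out NTC no dox 48 h replicate 3, NTC dox 48 h replicates 1 and 3, PELO no dox 48 h replicate 2 or PELO dox 48 h replicates 2 and 3. It was also lost with RLE size factors (0.055), no filter (0.063), libraries of 48 h alone (0.082) and DESeq2 (0.10), 10 of 21 alternatives in all. None of the 5 passed in the HBS1L line. Of 7 other cytosolic elongation genes, 4 rose and 2 fell in PELO at 48 h, and 4 rose and 1 fell at 96 h, with medians of 0.24 and 0.33. DOHH and DHPS, the enzymes that make hypusine on eIF5A, parted: DOHH rose by 0.74 ± 0.09 (adjusted p = 3.7e-09) and 0.86 ± 0.08 (adjusted p = 2.7e-11), and DHPS fell at 96 h with -0.49 ± 0.07 (adjusted p = 7.7e-08). EIF5A2, the second eIF5A gene, rose by 0.69 ± 0.09 (adjusted p = 1.3e-07) and 0.85 ± 0.09 (adjusted p = 6.1e-10). EEFSEC, the factor that delivers selenocysteine, rose by 0.45 ± 0.08 (adjusted p = 6.2e-06) at 48 h. In the HBS1L line none passed at 48 h, and 1 rose and 1 fell at 96 h, DHPS with 0.22 ± 0.07 (adjusted p = 0.029) and EIF5A with -0.31 ± 0.08 (adjusted p = 0.0092). The DHPS call was lost without NTC no dox 96 h replicate 2, NTC dox 96 h replicates 1 and 2, HBS1L no dox 96 h replicates 2 and 3 or HBS1L dox 96 h replicates 1 and 2, and the EIF5A call without HBS1L no dox 96 h replicate 2. The DHPS call was also lost with no filter (adjusted p = 0.19) and on libraries of 96 h alone (0.075).

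The mitochondrial counterparts moved in both directions. Of 11 genes, 3 rose and 3 fell in the PELO line at 48 h, and 4 rose and 3 fell at 96 h, with medians of -0.06 and 0.11. Here too the share called is near that of all genes. With HBS1L targeted, none rose and 1 fell at 48 h, TSFM with -0.28 ± 0.07 (adjusted p = 0.011), and none passed at 96 h. That TSFM call was lost with no filter on low counts (adjusted p = 0.083). MTRF1L, a mitochondrial release factor, had 79.9 ± 2.90 CPM in PELO with dox and 38.8 ± 1.80 CPM in PELO without dox at 96 h, against 42.4 ± 1.49 CPM in NTC with dox and 39.6 ± 1.45 CPM in NTC without dox (SD, n = 3). It rose by 0.88 ± 0.06 (adjusted p = 1.6e-14) and 0.94 ± 0.06 (adjusted p = 7.5e-16). MRRF, the mitochondrial recycling factor, rose by 0.40 ± 0.05 (adjusted p = 1.2e-07) at 48 h. TSFM and TUFM, the mitochondrial elongation factors Ts and Tu, fell at 96 h with -0.47 ± 0.07 (adjusted p = 1.6e-07) and -0.57 ± 0.07 (adjusted p = 2.7e-08). The fall of TSFM in the PELO line was not confined to that time, since its 48 h value was -0.49 with an adjusted p of 2.7e-07. Several of the list genes share exon length with other genes, and their counts are uncertain to that extent. The shared length was 53.8% for JMJD4, 46.8% for EEF1AKMT4, 41.9% for DHPS, 34.8% for MTRF1L, 29.3% for EEF2KMT and 28.5% for TSFM.

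**Figure D4:**
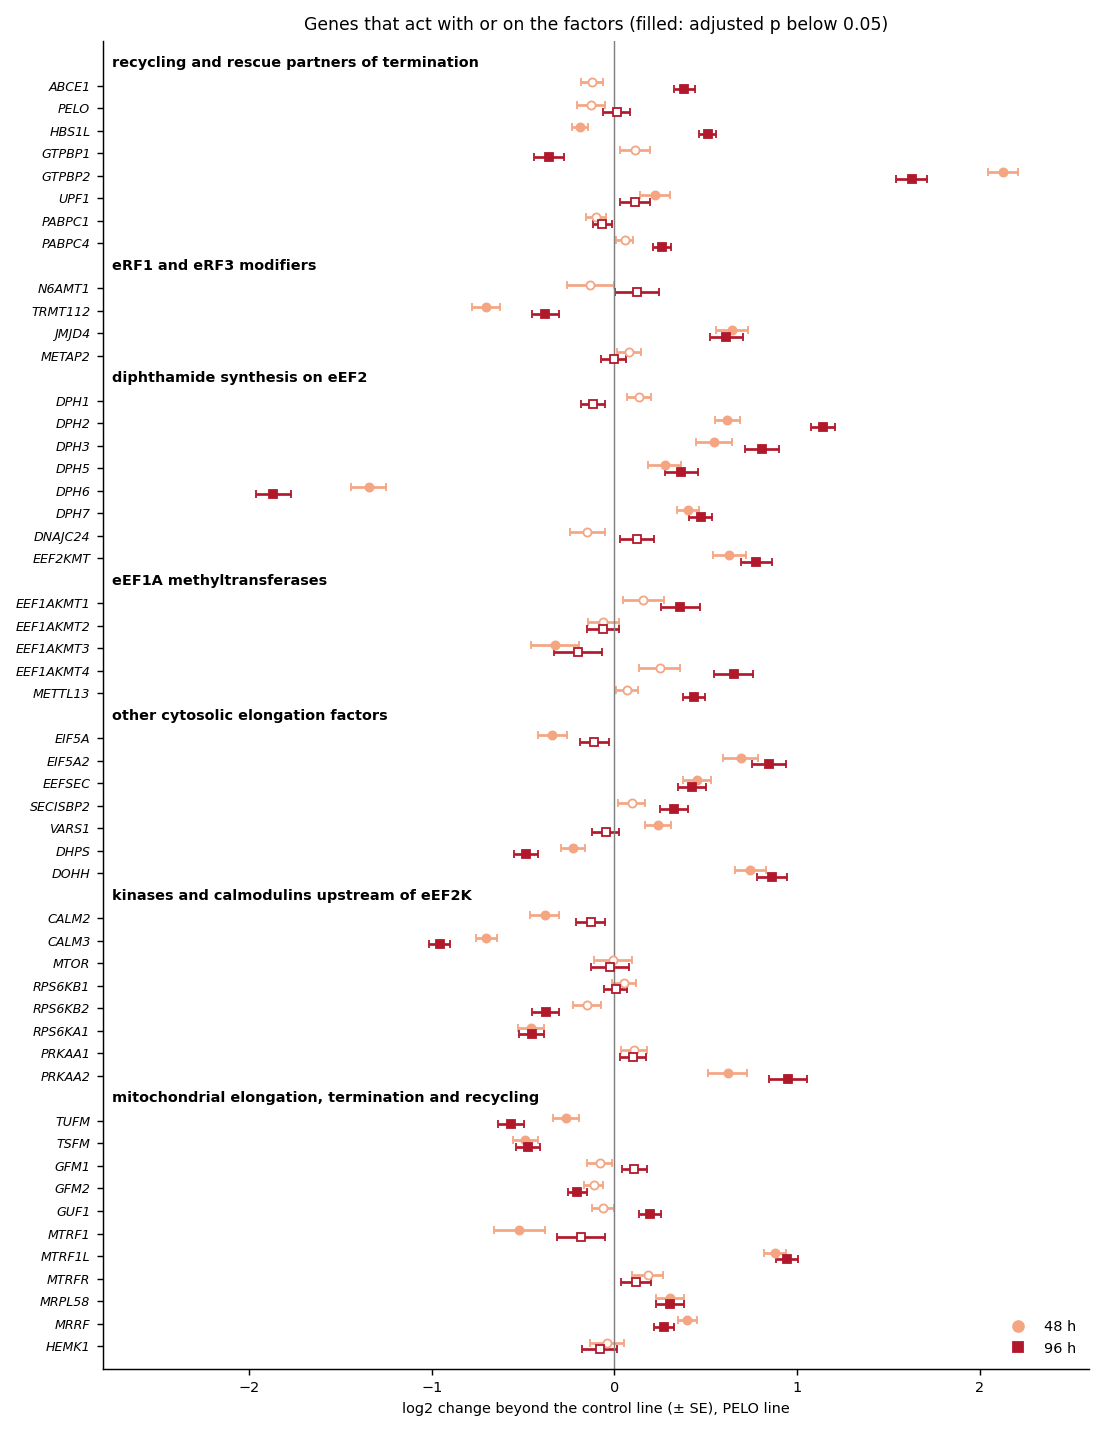
Log2 change beyond the control line, ± SE, in the PELO line at 48 h (light circles) and 96 h (dark squares) for the genes of the 7 lists, named at the left; filled symbols have an adjusted p below 0.05. DPH6 lies at -1.34 and -1.87 while DPH2 lies at 0.62 and 1.14, CALM3 lies at -0.70 and -0.96, and GTPBP2 lies farthest to the right at 2.12 and 1.63.

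Among the members themselves, EEF1A1 and the 3 exchange factor genes followed each other across the 12 groups, with a Pearson r of EEF1A1 of 0.942 with EEF1B2, 0.934 with EEF1G and 0.886 with EEF1D. EEF1A2 followed them less closely, with r of 0.293 with EEF1B2, 0.360 with EEF1D, 0.440 with EEF1A1 and 0.608 with EEF1G. EEF2, whose start site also carries the pyrimidine run, had r of 0.192 with EEF1A1 and -0.108 with EEF1B2. EEF2K ran against the exchange factor genes, with r of -0.845 with EEF1D and -0.789 with EEF1B2, and had r of 0.0253 with EEF2. Searched over 9291 protein-coding genes with a mean of at least 10 CPM, the gene most like ETF1 was SDCBP (r = 0.977) and the one most like GSPT1 was UBE2D1 (r = 0.989). The most alike genes were KLF2 for EEF2 (0.908), NFIX for EEF2K (0.980), RPS18 for EEF1A1 (0.958), AKIP1 for EEF1A2 (0.887), COA8 for EEF1B2 (0.984) and RCE1 for EEF1D (0.958). For EEF1G it was ENSG00000255508, the overlapping gene model, and for GSPT2 it was ENSG00000272741 (0.977). These correlations are over log2 group means that share 3 libraries each, the highest of many were taken, and they carry no test.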

How the data were processed

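The 36 libraries of polyadenylated RNA were prepared with a NEB Ultra II kit, per the labels' protocols. The submitters' processing notes name Subread, its counter featureCounts, DRAGEN, limma and edgeR, and the build GRCh38.p13. No version, order, option, strand setting or annotation is given in the sources used here. The authors deposited a table of estimated counts for 61544 genes, of which 45.6% of values above 0 are not whole, and a table of log2 CPM.

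The deposited counts were rounded to whole numbers. Genes were kept with filterByExpr (minimum count 10, minimum total 15), which left 20767, and each library kept at least 99.9% of its counts. Libraries were scaled with TMM and fitted in edgeR 4.0.16 (R 4.3.3) with 1 mean per group, leaving 24 residual degrees of freedom; log2 changes were tested with the robust quasi-likelihood F test, adjusted by Benjamini-Hochberg over all genes at 0.05, and SE is the log2 change divided by the square root of F. The fit was tested on simulated data. Levels are CPM on scaled libraries, and per kb of merged GENCODE 29 exons where genes are compared. Alternatives were DESeq2 1.42.0, its size factors in edgeR (RLE), no filter, libraries of the same time only, a replicate block, limma 3.58.1 on the deposited log2 CPM, pseudogene counts added, each library left out in turn and, added after the data were seen, total count scaling and the removal of 7 libraries that stand apart from their groups.

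The members and the 7 gene lists were chosen with earlier results of these data known, and parts of the lists' results may have been known too. The genes named are the members, PELO and HBS1L, at most the 3 list genes with the smallest adjusted p per list and comparison, and per member the protein-coding gene with the highest correlation of group means. EEF1A1P5, EEF1A1P6, NDUFS1, TIGD5 and ENSG00000255508 were named after their values were seen. Markers of other cell types were read as levels. A gene of the list upstream of eEF2K is not reported here and was left out of its counts. The labels do not say whether the 3 libraries of a group come from separate cultures, so p-values measure the spread between these libraries, which may be technical. No pair of libraries within a group agreed within counting noise, with chi-square per degree of freedom of 1.81 to 19.1. A library was taken to stand apart where both its values were over 3 times that of the other pair. Library sizes ran from 45356024 to 107436235 counts, and the fewest counts of a member in a library were 1067 for EEF2K.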

Additional observations from a re-analysis of the deposited data

Results flagged for a closer look

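The PELO and HBS1L responses to dox were set against each other by a test of the difference itself (edgeR's quasi-likelihood F test, adjusted over all genes), and members that passed are given here as the PELO response minus the HBS1L response on the log2 scale, ± SE; the control libraries cancel in it. At 48 h the PELO response was higher for ETF1 by 0.37 ± 0.06 (adjusted p = 1.5e-06), for GSPT1 by 0.27 ± 0.05 (adjusted p = 2.1e-05), for EEF2 by 0.20 ± 0.06 (adjusted p = 0.010), for EEF1A1 by 0.19 ± 0.08 (adjusted p = 0.042), for EEF1B2 by 0.25 ± 0.08 (adjusted p = 0.0098) and for EEF1D by 0.39 ± 0.07 (adjusted p = 8.7e-06). It was lower for EEF2K, at -0.44 ± 0.08 (adjusted p = 2.4e-05). The EEF1A1 call was lost in 10 of 12 cases with a library left out, all but PELO no dox 48 h replicate 3 and PELO dox 48 h replicate 1, and the EEF1B2 call was lost without PELO no dox 48 h replicate 1. With total count scaling the calls of EEF2, EEF1A1 and EEF1B2 were lost, with adjusted p of 0.10, 0.23 and 0.057, and limma on the authors' log2 CPM gave EEF1A1 an adjusted p of 0.070.

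At 96 h the PELO response was higher for ETF1 by 0.58 ± 0.06 (adjusted p = 5.9e-11), for GSPT1 by 0.45 ± 0.05 (adjusted p = 3.8e-10) and for GSPT2 by 0.30 ± 0.08 (adjusted p = 0.0014). It was lower for EEF2 at -0.51 ± 0.06 (adjusted p = 1.7e-08), for EEF2K at -0.33 ± 0.08 (adjusted p = 5.5e-04), for EEF1A2 at -0.46 ± 0.07 (adjusted p = 7.4e-07) and for EEF1G at -0.17 ± 0.08 (adjusted p = 0.048). The EEF1G call was lost without PELO no dox 96 h replicate 3, PELO dox 96 h replicates 2 and 3 or HBS1L dox 96 h replicates 1 and 2, and under RLE size factors, the replicate block, libraries of 96 h alone and DESeq2, with adjusted p between 0.056 and 0.078.

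The responses at 96 h and 48 h differed for 1 member in each line, by a test of the 96 h response minus the 48 h response beyond the control line. For EEF2 in the PELO line this was -0.55 ± 0.09 (adjusted p = 2.7e-05). For EEF1D in the HBS1L line it was 0.36 ± 0.10 (adjusted p = 0.032), a call lost in 14 of 24 cases with a library left out. The libraries of the 2 times come from separate blocks of library numbers, so time and block cannot be told apart in these values. EEF1A1 passed too in the PELO line without the 7 libraries that stand apart from their groups, and 6 members passed in the HBS1L line. Over all genes 4816 passed in PELO without these libraries, against 4259 with all of them, and 2461 against 637 in HBS1L.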

How the results depend on the processing

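Beyond the control line, ETF1, GSPT1, EEF2, EEF2K and EEF1D at both times and EEF1B2 at 96 h in the PELO line, and EEF1A2 and EEF1D at 96 h in the HBS1L line, kept direction and call in 21 of 21 alternatives. Counts of members called moved by over 1.5 times as follows. With total count scaling the HBS1L response beyond the control line at 96 h had 5 in place of 3, the control line at 96 h 1 in place of 2, PELO without dox against NTC without dox at 48 h 1 in place of 0, dox in the PELO line at 48 h 3 in place of 5, and the PELO minus HBS1L response at 48 h 4 in place of 7. With no filter, dox at 48 h gave 3 in the PELO line, 1 in the HBS1L line and 1 in the control line. On libraries of the same time only, dox gave 8 in the PELO line at 48 h and 1 in the control line at 96 h. Without the 7 libraries that stand apart, dox at 48 h gave 9 in the PELO line, 6 in the HBS1L line and 4 in the control line, and HBS1L with dox against NTC with dox at 48 h gave 6 in place of 3. The HBS1L response beyond the control line at 96 h had 7 in place of 3, PELO without dox against NTC without dox at 48 h 1 in place of 0, and the difference between times 2 in place of 1 in PELO and 6 in place of 1 in HBS1L. Over all genes the HBS1L response at 96 h then had 3611 in place of 2228. The difference between times had 4816 in place of 4259 genes in PELO and 2461 in place of 637 in HBS1L. Removing the libraries farthest from their groups lowers the spread by its construction; the cause was otherwise not tested.

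With each library left out in turn, the members called beyond the control line ranged over 5 to 7 at 48 h and 6 to 7 at 96 h for PELO and 2 to 5 at 96 h for HBS1L, and over 0 to 1 for the HBS1L difference between times. The PELO minus HBS1L response ranged over 5 to 7 and 6 to 7. Dox against no dox ranged over 3 to 7 and 8 to 9 in PELO, 1 to 2 at 48 h in HBS1L and 0 to 3 at 96 h in NTC. With dox, HBS1L against NTC ranged over 2 to 4 and 5 to 9, and PELO against NTC over 7 to 8 at 96 h. Without dox, PELO against NTC ranged over 3 to 5 at 96 h and HBS1L against NTC over 4 to 6 at 48 h.

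Of the lists, the PELO count of recycling partners at 48 h was 5 in place of 3 with total count scaling. In the HBS1L line the mitochondrial list at 96 h had 1 or 2 called in 10 of 21 alternatives, and the cytosolic list at 96 h had 0 or 1 in 9 of 21. Without the 7 libraries that stand apart, the diphthamide list had 1 and 2 called in the HBS1L line at 48 h and 96 h, the list upstream of eEF2K 2 at 96 h and the cytosolic list 1 at 48 h, each in place of 0, and the eEF1A methyltransferases 3 in place of 1 in the PELO line at 48 h. Same-numbered libraries did not deviate together more than others did. Their correlations had a median of -0.0375 at 48 h (-0.558 to 0.428) and -0.0453 at 96 h (-0.464 to 0.577). Between libraries of different numbers the medians were 0.0133 (-0.571 to 0.486) and 0.0355 (-0.547 to 0.552). Single pairs of both kinds thus deviated together, and the numbers gave no basis for pairing the libraries. A replicate block changed 1 of the members' calls, EEF1G in the PELO minus HBS1L response at 96 h, to -0.17 with an adjusted p of 0.056, and brought that count to 6. The members' counts are high in every library, and the 3 libraries of each group limit what can be called.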
